A study of Mus musculus with 8 samples.

Results

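The genes described here carry sugar across the intestinal epithelium or handle it inside the cell. They are Slc5a1, Slc2a1, Slc2a2, Slc2a5, Khk, Pck1 and G6pc, taken by gene name, and all 7 were present among the 55487 named genes of the deposited table. All 7 were also among the 14011 genes that passed the filter on low counts. RNA was sequenced from ileal crypt cells of C57BL/6 mice, in 4 libraries from mice given 20 mg per kg CPT-11 for 7 days (irinotecan, a chemotherapy drug whose active form blocks topoisomerase I) and in 4 libraries from mice given vehicle. Crypts, the glands between the villi, were shaken off in EDTA and made into single cells with trypsin, with no cell sort named. Whether the libraries are separate mice is not stated, and p-values then measure only the spread of these libraries, which may be technical.

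Enterocytes take up glucose and galactose from the gut lumen together with sodium through SGLT1, the product of Slc5a1, and fructose through GLUT5, the product of Slc2a5. GLUT2, from Slc2a2, lets these sugars leave on the blood side, and GLUT1, from Slc2a1, is a glucose transporter used widely, among others by dividing cells and endothelium. Ketohexokinase, from Khk, commits fructose to breakdown. Pck1 and G6pc encode the cytosolic phosphoenolpyruvate carboxykinase and the catalytic subunit of glucose-6-phosphatase, which act early and last in glucose synthesis. Sugar absorption is mainly a task of mature villus enterocytes, whose precursors arise in the crypt.

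Total counts were 20790164 to 23479121 per library. CPT-11 replicate 2 stood apart, with a Spearman rho across genes of 0.931 to 0.962 to the rest of its group, whose libraries reached 0.973 to 0.988 among themselves (genes are not independent replicates). It and CPT-11 replicate 4 held fewer reads from long genes (rho of -0.49 and -0.44 between gene length and the deviation from the mean of the 8 libraries, against 0.04 to 0.44 elsewhere). The 16 listed markers of enterocytes, the absorptive cells, were all detected, and their summed level was 14907 to 23868 CPM (counts per 1000000 counts) with vehicle and 22141 to 66245 CPM under CPT-11. The top value was that of CPT-11 replicate 2 alone, where Apoa1 (30182 CPM) and Fabp2 (19026 CPM) were the largest parts. The other CPT-11 libraries summed to 22141 to 32674 CPM, and the lowest of them lay inside the vehicle range. In these bulk samples more cells of a type and more RNA per cell cannot be told apart.

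None of the 7 genes passed the edgeR test of CPT-11 against vehicle. By the edgeR quasi-likelihood test 0 of 7 rose or fell, with Benjamini-Hochberg adjusted p from 0.225 to 0.983, where 5.50% of all genes tested passed, 2.98% upward and 2.52% downward. By adjusted p the count was also 0 with DESeq2 and with limma-voom, which called 13.5% and 5.67% of all genes they tested. At an unadjusted p below 0.05, which 24.6% of all genes reached by edgeR, the count was 0 by edgeR and 1 each by DESeq2 and limma-voom, Slc2a2 (unadjusted p = 0.0393 and 0.0482 from these fits across all genes). The fitted log2 fold change was above 0 for 7 of 7, with a median of 0.26, beside a median of 0.01 over all genes tested, 51.3% of which were above 0. Vehicle and CPT-11 libraries overlapped for every one of the 7 genes, while the groups did not overlap for 18.5% of all genes tested, 8.41% higher and 10.1% lower. A change of moderate size may have been missed. When known changes were placed in simulated counts of this comparison (13816 genes), 4 of 67 genes with a 1.5-fold change were found. At 2-fold 27 of 67 were found, and at 4-fold 59 of 66. In the simulation 13616 of the genes were unchanged. With so few changed genes the adjusted threshold is stricter than where 5.50% of genes pass, so these rates may be too low here. The rates are also averages over randomly drawn genes. Of the 7 genes described, 5 had a standard error of the log2 fold change above the median over all genes tested (0.209). For these 5 the rates may be too high. The simulated counts also held no trend on gene length.

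**Figure D1:**
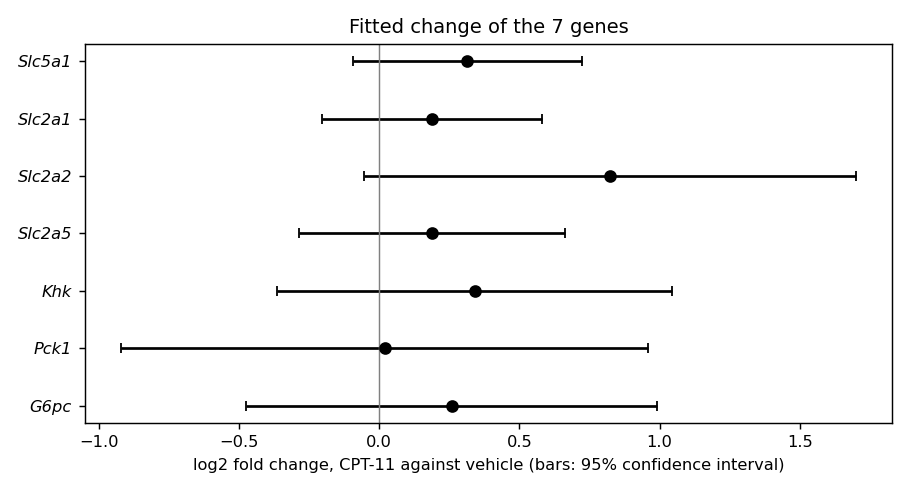
Fitted log2 fold change, CPT-11 against vehicle, for each of the 7 genes (points) with its 95% confidence interval (bars), 4 libraries per group. Every interval crosses 0, and the interval of Slc2a2 reaches furthest to the right, from -0.05 to 1.70.

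Per unit of gene length, Slc5a1 and Khk were the most abundant of the 7 in vehicle crypts, and Slc2a1 and Slc2a2 the least. Slc5a1 stood at 132 ± 23.1 CPM per kilobase (mean ± SD, n = 4) and Khk at 129 ± 26.9, followed by Pck1 at 34.4 ± 19.9 and G6pc at 13.0 ± 6.08. Slc2a5 stood at 7.15 ± 2.02, Slc2a1 at 4.82 ± 0.402 and Slc2a2 at 4.39 ± 2.27 CPM per kilobase. The order of levels was the same in every library for most neighbours: Khk was above Pck1, Pck1 above G6pc, G6pc above Slc2a5 and Slc2a5 above Slc2a1 in 8 of 8 libraries. It was not fixed at the ends, where Slc5a1 was above Khk in 6 of 8 libraries and Slc2a1 above Slc2a2 in 4 of 8. Among all genes tested, the mean log2 CPM of Slc5a1 lay at the 98.5 percentile and that of Slc2a1 at the 50.2 percentile.

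Slc5a1, the sodium-glucose cotransporter gene of the brush border (chromosome 5, 33104219 to 33162870, GENCODE M21 on GRCm38, protein-coding), was at a high level in both groups. It measured 477, 651, 595 and 452 CPM in vehicle replicates 1 to 4 and 683, 610.3, 843 and 568 CPM in CPT-11 replicates 1 to 4. CPT-11 replicates 1 and 3 lay above every vehicle library, and the other CPT-11 libraries lay within the vehicle range. The means were 544 ± 94.7 CPM under vehicle and 676 ± 121 CPM under CPT-11 (log2 change 0.31 ± 0.18, SE, adjusted p = 0.311 by edgeR), and the 95% interval of the fold ran from 0.936 to 1.65. Without the CPT-11 replicates 2 and 4 the log2 fold change was 0.50 (adjusted p = 0.0850 by edgeR).

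The stretch upstream of the Slc5a1 start is shown because the gene is the main route of glucose uptake and its level is the highest of the 7. It is taken from the RefSeq promoter table (GRCm38.p6, plus strand, chr5:33103969-33104218). Capitals mark an E box (CACGTG, which reads the same on both strands) and a core of the HNF4 motif (AAAGTCC, here on the minus strand). A match is a run of letters, not evidence that a factor binds.
Slc5a1: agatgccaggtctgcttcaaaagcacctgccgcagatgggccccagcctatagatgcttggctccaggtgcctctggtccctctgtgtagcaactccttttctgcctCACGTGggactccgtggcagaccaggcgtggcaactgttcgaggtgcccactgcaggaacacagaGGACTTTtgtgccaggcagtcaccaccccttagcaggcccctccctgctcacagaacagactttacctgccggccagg

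Slc2a2, the exit route for glucose and fructose (chromosome 3, 28697903 to 28731359), had the largest fitted difference of the 7 and also a wide spread. Vehicle replicates 1 to 4 measured 22.2, 40.7, 25.0 and 10.0 CPM, and CPT-11 replicates 1 to 4 measured 57.3, 48.4, 44.9 and 22.5 CPM. CPT-11 replicates 1 to 3 were above every vehicle library, but CPT-11 replicate 4 was below vehicle replicates 2 and 3. The means were 24.5 ± 12.6 and 43.3 ± 14.8 CPM, a fitted 1.77-fold difference with a 95% interval from 0.964 to 3.25 (adjusted p = 0.225 by edgeR). The vehicle libraries alone spread from 10.0 to 40.7 CPM, a range wider than the difference between the group means. The interval includes both no change and a change of more than 2-fold. With each library left out in turn, the log2 fold change ran from 0.56 (without vehicle replicate 4) to 1.17 (without vehicle replicate 2).

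Slc2a5, the fructose transporter gene of the brush border (chromosome 4, 150119283 to 150144169), differed less between the group means than between libraries of a group. It measured 16.9, 29.6, 26.3 and 17.5 CPM in vehicle replicates 1 to 4 and 23.1, 30.5, 28.1 and 21.1 CPM in CPT-11 replicates 1 to 4. The groups overlapped, with 1 CPT-11 library above every vehicle library and vehicle replicates 1 and 4 below every CPT-11 library. The fitted fold was 1.14, with a 95% interval from 0.820 to 1.58 (adjusted p = 0.602 by edgeR), so a rise of 2-fold lies outside the interval.

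Slc2a1, the widely used glucose transporter gene (chromosome 4, 119108711 to 119137983), was the steadiest of the 7 with vehicle. Vehicle replicates 1 to 4 measured 15.6, 16.2, 17.0 and 13.9 CPM, a coefficient of variation of 8.34%. CPT-11 replicates 1 to 4 measured 18.8, 21.7, 12.5 and 18.6 CPM, so that 3 libraries lay above every vehicle library and CPT-11 replicate 3 lay below every one. The fitted fold was 1.14 (95% interval 0.868 to 1.49, adjusted p = 0.521 by edgeR), and without CPT-11 replicates 2 and 4 the log2 fold change was -0.0011. The gene shares 105 exon bases with the antisense gene Gm12868, which had 0 counts in every library. Without a stated strand setting, reads of the 2 genes cannot be told apart within these 105 bases. Slc2a1 is also a gene of endothelium. Of 6 endothelial markers 2 passed the filter, and all 6 summed to 3.27 to 3.55 CPM under vehicle and 3.27 to 4.39 CPM under CPT-11. The 6 red cell markers summed to 2.44 to 5.40 CPM under vehicle and 3.27 to 16.6 CPM under CPT-11. The part of endothelial or blood cells in the Slc2a1 level was not tested.

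**Figure D2:**
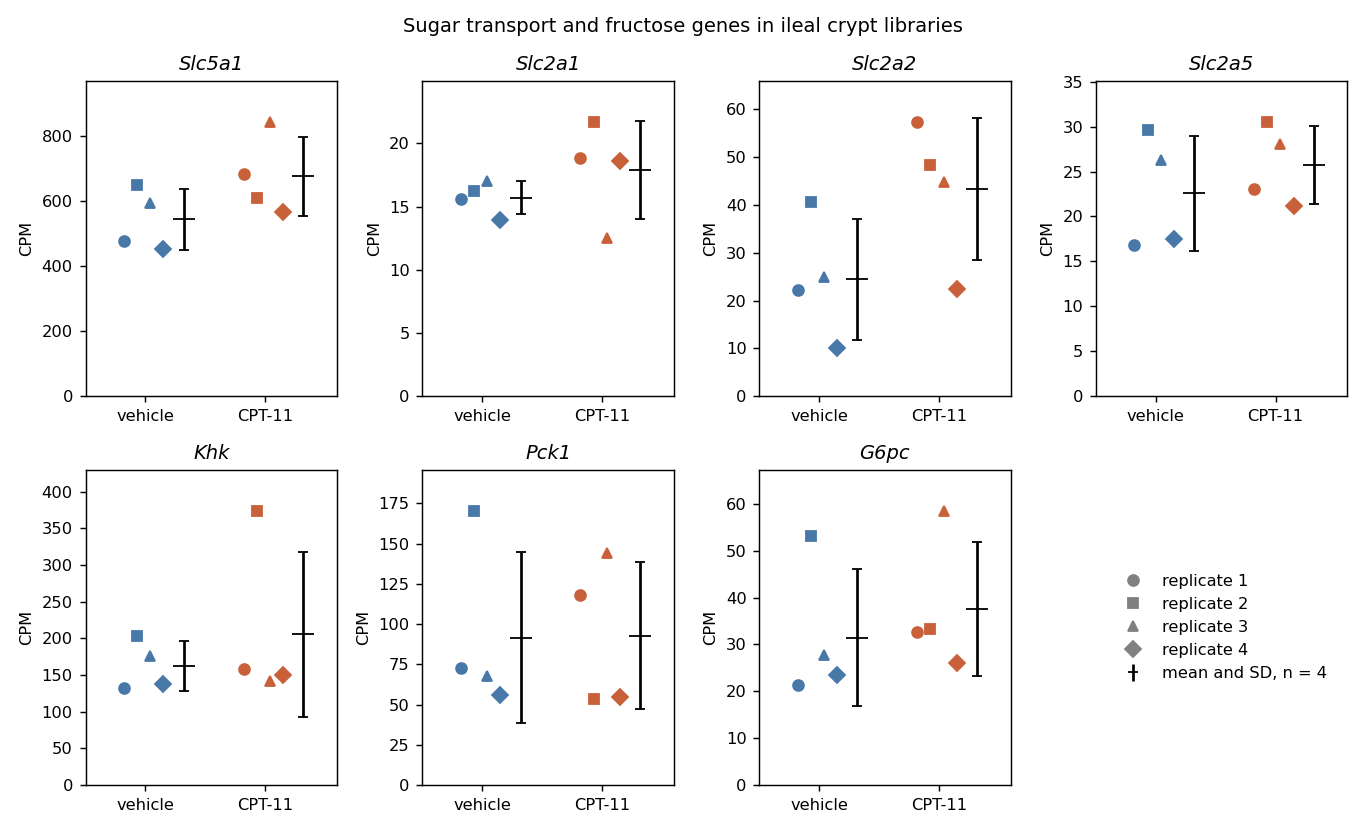
CPM of each of the 7 genes in each library (coloured symbols, 1 shape per replicate number) with the mean and SD of the group (black, n = 4); each axis starts at 0. The groups overlap in every panel, with CPT-11 replicate 2 of Khk at 374 CPM and vehicle replicate 2 of Pck1 at 170.4 CPM standing away from the rest of their groups.

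Khk, which encodes ketohexokinase (chromosome 5, 30921431 to 30931248), was alike in 7 libraries and high in 1. Vehicle replicates 1 to 4 measured 132, 203, 177 and 138 CPM, and CPT-11 replicates 1 to 4 measured 158, 374, 141 and 149.8 CPM. CPT-11 replicate 2 was 2.84-fold above the lowest library, and the other CPT-11 libraries lay inside the vehicle range. The means were 162 ± 33.8 and 206 ± 112 CPM (log2 change 0.34 ± 0.32, adjusted p = 0.517 by edgeR), and without CPT-11 replicate 2 the sign turned (log2 change -0.11, adjusted p = 0.713 by edgeR). CPT-11 replicate 2 is the library with the fewest reads from long genes, and Khk, at 1257 bases in the deposited table, is the shortest of the 7. With every library corrected for its trend on gene length, Khk in CPT-11 replicate 2 stood at 279 CPM. The other 7 libraries then stood at 135 to 213 CPM, and the log2 fold change of Khk was 0.08 (adjusted p = 0.844 by edgeR). Khk was the only member whose log2 fold change shrank under this correction. That of Slc5a1 was then 0.43 (adjusted p = 0.0987 by edgeR) and that of Slc2a2 1.03 (adjusted p = 0.121 by edgeR).

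The Khk promoter, as RefSeq places the start, holds an E box and a core of the HNF1 motif (GTTAAT) within a short stretch, shown because E boxes are the letters read by many factors, among them the sugar-responsive ChREBP (RefSeq, GRCm38.p6, plus strand, chr5:30921485-30921507). The stretch lies upstream of the RefSeq start but downstream of the GENCODE gene start given above. Capitals mark the E box CACGTG, the HNF1 core and, overlapping the E box, the core of the cAMP response element (TGACG on the minus strand).
Khk: CGTCACGTGacaccGTTAATctg

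Pck1 and G6pc, the glucose synthesis genes, differed more between libraries of a group than between the groups. Pck1 (chromosome 2, 173153048 to 173159273) measured 72.8, 170.4, 67.4 and 55.6 CPM in vehicle replicates 1 to 4 and 118, 53.5, 144 and 54.9 CPM in CPT-11 replicates 1 to 4. Vehicle replicate 2 stood above the other vehicle libraries, and CPT-11 replicates 1 and 3 stood above CPT-11 replicates 2 and 4. The means were 91.6 ± 53.1 and 92.7 ± 45.7 CPM, the fitted fold was 1.01 and its 95% interval ran from 0.529 to 1.94 (adjusted p = 0.983 by edgeR). Leaving out single libraries moved the log2 fold change between -0.28 (CPT-11 replicate 3 left out) and 0.50 (vehicle replicate 2 left out). G6pc (chromosome 11, 101367561 to 101377903) measured 21.4, 53.1, 27.7 and 23.5 CPM under vehicle and 32.6, 33.2, 58.5 and 26.0 CPM under CPT-11, in the same order of replicates. In each group 1 library stood above the rest, vehicle replicate 2 and CPT-11 replicate 3, which were also the highest of their groups for Pck1. The fitted fold of G6pc was 1.2 (95% interval 0.720 to 1.99, adjusted p = 0.645 by edgeR), and without CPT-11 replicate 3 its log2 fold change was -0.043.

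Pck1 and G6pc were highest in the same libraries, as was Slc5a1, whose stretch is shown above. The stretches upstream of the Pck1 and G6pc starts are printed from the RefSeq promoter table (GRCm38.p6, plus strand, chr2:173152823-173153047 and chr11:101367466-101367560), each ending 1 base before the GENCODE gene start. The RefSeq start lies further downstream in both, so the stretches stop short of it. The G6pc stretch leaves out a TATA box (TATAAA) at 101367687, 29 bases before the RefSeq start. Capitals mark the HNF1 core GTTAAT in both (on the minus strand in Pck1), and in Pck1 also the core of the cAMP response element (TGACG, minus strand) and a GATA core (AGATAA, minus strand).
Pck1: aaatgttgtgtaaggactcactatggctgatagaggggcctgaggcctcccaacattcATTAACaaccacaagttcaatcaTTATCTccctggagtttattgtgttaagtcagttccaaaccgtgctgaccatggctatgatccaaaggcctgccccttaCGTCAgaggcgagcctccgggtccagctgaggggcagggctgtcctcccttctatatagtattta
G6pc: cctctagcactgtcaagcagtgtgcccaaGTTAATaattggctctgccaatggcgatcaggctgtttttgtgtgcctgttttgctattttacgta

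All 7 genes were matched by symbol in the promoter table, whose windows of 300 bases were searched on both strands for exact letters. The HNF1 core was found in 3 of the 7 promoters (Khk, Pck1 and G6pc) and in 7.1% of 32841 promoters of this length. The E box was found in 2 of 7 and in 7.15% of all promoters. The cAMP response element core was found in 2 of 7 and in 20.8% of all, the HNF4 core in 1 of 7 and in 4.21%, the TATA box TATAAA in 2 of 7 and in 13.6%, the GATA core in 1 of 7 and in 11.2%, and the CDX core TTTATG in 0 of 7 and in 11.9%. These are descriptions of letters, with the members chosen by function. The windows run past the RefSeq start. The TATAAA of Slc2a1 lies 28 bases after that start, and the TATAAA of G6pc 29 bases before it.

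For most of the 7 genes the same vehicle library was the highest, while the highest CPT-11 library varied by gene. Vehicle replicate 2 was the highest vehicle library for 6 of the 7 genes, all but Slc2a1, and it also had the highest enterocyte marker sum of its group (23868 CPM). Vehicle replicate 4 was the lowest for 4 of 7 and vehicle replicate 1 for 3 of 7, while the lowest marker sum was that of vehicle replicate 1 (14907 CPM). Among the CPT-11 libraries, replicate 4 was the lowest for 4 of 7 and had the lowest enterocyte marker sum of its group (22141 CPM). CPT-11 replicate 3 was the highest for Slc5a1, Pck1 and G6pc, and replicate 2 for Slc2a1, Slc2a5 and Khk. CPT-11 replicate 2 had the highest marker sum of its group (66245 CPM) but was the lowest of its group for Pck1. The enterocyte content's part in these differences was not tested. Within a library, the log2 level relative to the mean of the 16 enterocyte markers was lower with CPT-11 on average for 6 of the 7 genes and higher for Slc2a2, and for all 7 the groups overlapped. Without CPT-11 replicates 2 and 4 the difference of Pck1 went from -0.61 to -0.04. That of G6pc went from -0.36 to -0.13 and that of Slc5a1 from -0.33 to -0.20. The differences of Slc2a1, Slc2a5 and Khk moved further below 0. The Slc2a2 difference of 0.25 fell to 0.07 without CPT-11 replicate 1 and turned to -0.06 without vehicle replicate 4. The log2 ratio of Slc2a2 to Slc5a1, exit over uptake, was -4.59 ± 0.61 with vehicle and -4.01 ± 0.50 with CPT-11, ranges that overlapped too, and the difference of 0.58 was 0.30 without vehicle replicate 4.

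**Figure D3:**
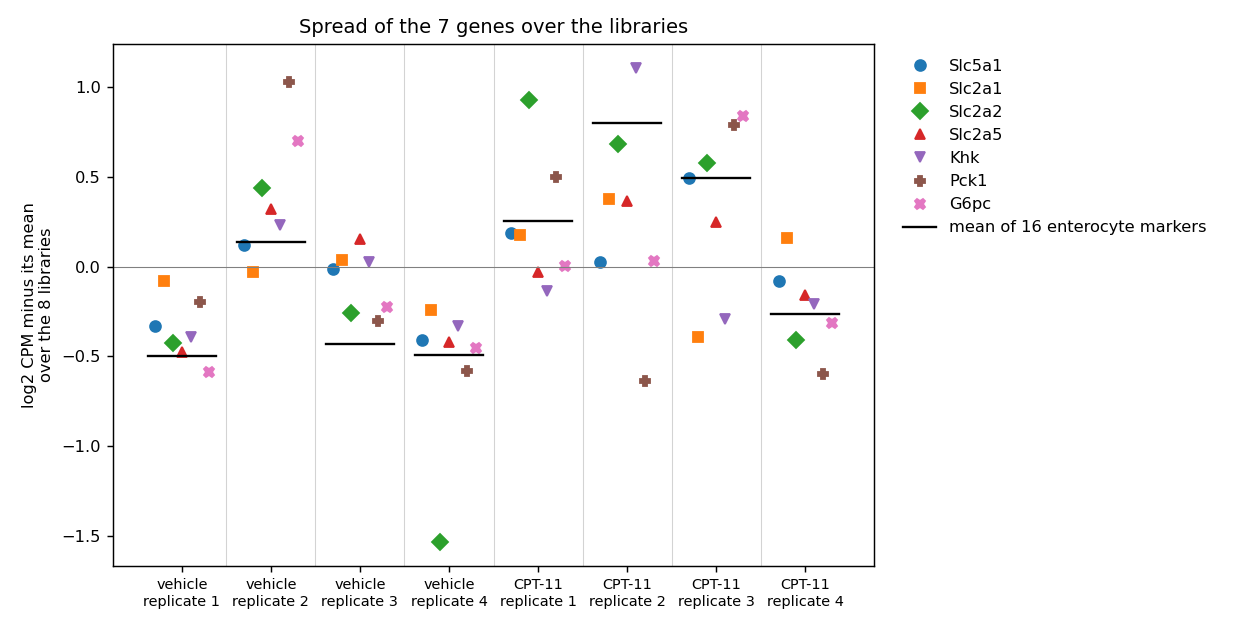
Log2 CPM of each of the 7 genes minus its own mean over the 8 libraries (symbols), with the mean of the 16 enterocyte markers treated alike (black bars). Slc2a2 in vehicle replicate 4 lies lowest, and Pck1 lies high in vehicle replicate 2 and CPT-11 replicate 3 and low in CPT-11 replicates 2 and 4.

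The genes whose log2 CPM was most like each member's over the 8 libraries were picked by Pearson's r, as a description that shares libraries, depth and a choice among 14011 genes. For Slc2a2 they were Fabp1, the fatty acid binding protein of enterocytes (r = 0.96), and Zfp189 (0.95). For Khk they were Tmem120a (0.99) and Fth1, the ferritin heavy chain (0.98). For Pck1 they were Tymp, thymidine phosphorylase (0.97), and Mnt (0.96), and for G6pc Adam22 (0.95) and Fmo5 (0.94). Those of Slc5a1 were Cavin1 and Vps18 (0.96 each), those of Slc2a5 Arsa (0.94) and Ehd1 (0.93), and those of Slc2a1 4933406C10Rik (0.97) and 2810025M15Rik (0.96). Khk stood apart in CPT-11 replicate 2, so its r values may rest largely on that library. Zfp189 and Adam22 were at 0.564 and 0.661 CPM on average under vehicle, near the pseudocount of 0.5 CPM.

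The other carriers of the sugar families were measured beside them, and none passed the test. Of 8 genes tested among the other sodium-coupled sugar carriers and their partners, 0 rose or fell by edgeR, 1 had an unadjusted p below 0.05, DESeq2 called 1 and limma-voom 0 (median log2 fold change 0.29). That 1 gene was Slc5a4b, a member of the same family, at 49.5 ± 13.2 CPM under vehicle and 86.9 ± 29.0 CPM under CPT-11 (log2 change 0.81, adjusted p = 0.0979). It has a close paralog, Slc5a4a, which was at 19.7 ± 6.88 and 13.3 ± 3.85 CPM (log2 change -0.57), and reads may be split between them. The sum of both ran from 51.1 to 95.8 CPM under vehicle and from 62.0 to 142 CPM under CPT-11, ranges that overlapped. Of 8 tested among the other facilitative carriers 0 passed by edgeR, 4 had an unadjusted p below 0.05, DESeq2 called 3 and limma-voom 0 (median 0.08). Slc2a7, an intestinal carrier of the GLUT family, stood at 3.72 ± 1.19 and 6.57 ± 1.69 CPM (adjusted p = 0.111). Slc2a10 stood at 4.32 ± 0.491 and 2.83 ± 0.354 CPM and Slc2a13, the proton myo-inositol carrier, at 3.36 ± 0.654 and 1.80 ± 0.425 CPM (adjusted p = 0.10 and 0.0735), with no overlap between groups. Slc2a6 was higher without overlap, at a low level of 0.441 ± 0.123 and 0.878 ± 0.343 CPM (adjusted p = 0.167). Slc2a13 passed without CPT-11 replicate 2 (adjusted p = 0.0480).

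The brush border enzymes that free sugar from disaccharides showed the same lack of calls. Of 4 tested, 0 passed by edgeR, 1 had an unadjusted p below 0.05, DESeq2 called 1 and limma-voom 0 (median 0.19). Treh, trehalase, stood at 69.5 ± 20.3 CPM under vehicle and 144 ± 67.4 CPM under CPT-11 (log2 change 1.05, adjusted p = 0.0819). Sis, sucrase-isomaltase, which frees fructose from sucrose, stood at 699.6 ± 42.9 and 841 ± 113 CPM (log2 change 0.27, adjusted p = 0.294).

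Around Khk, the other genes of fructose and polyol metabolism were also not called. Of 11 genes tested 0 rose or fell by edgeR, 2 had an unadjusted p below 0.05, DESeq2 called 1 and limma-voom 0, and 9 had a fold change above 0 (median log2 fold change 0.21). Tkfc, triokinase, stood at 167 ± 25.2 CPM under vehicle and 191 ± 14.4 CPM under CPT-11. Sord, sorbitol dehydrogenase, which makes fructose from sorbitol, stood at 309 ± 41.9 and 411 ± 55.2 CPM (adjusted p = 0.142) and passed without CPT-11 replicate 2 (0.0338). Akr1b3, the aldose reductase before it, stood at 40.2 ± 2.28 and 52.9 ± 11.3 CPM (adjusted p = 0.168) and passed without CPT-11 replicate 3 (0.0320).

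In glucose synthesis and glucose release, Pck2, the mitochondrial counterpart of Pck1, fell. It went from 51.0 ± 5.87 to 28.7 ± 4.62 CPM (log2 change -0.83 ± 0.14, adjusted p = 0.0125 by edgeR), lower in 4 of 4 CPT-11 libraries than in any vehicle library, and its call was lost without vehicle replicate 3 (adjusted p = 0.0505). It was the only gene called of 11 tested on this list (0 higher and 1 lower by edgeR, 5 with an unadjusted p below 0.05, 5 called by DESeq2 and 1 by limma-voom, median log2 fold change -0.06). Pcx, pyruvate carboxylase, stood at 19.0 ± 2.35 and 27.2 ± 5.22 CPM (adjusted p = 0.0958). Glud1, glutamate dehydrogenase, stood at 497 ± 41.4 and 336 ± 52.8 CPM (adjusted p = 0.0626), and passed without CPT-11 replicate 2 (0.0397) or 3 (0.0458). The difference between the changes of Pck2 and Pck1 was not tested.

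For glycolysis and lactate export, 0 of 20 genes tested passed by edgeR, 5 had an unadjusted p below 0.05, DESeq2 called 3 and limma-voom 1 (median log2 fold change 0.00, 10 above and 10 below 0). Hkdc1, a hexokinase-like gene, stood at 191 ± 13.0 CPM under vehicle and 123 ± 25.3 CPM under CPT-11 (adjusted p = 0.0533), and passed without CPT-11 replicate 2 (0.0198) or 3 (0.0292). Pklr, the pyruvate kinase of liver and intestine, stood at 135 ± 12.1 and 184 ± 16.5 CPM (adjusted p = 0.0679), and passed without CPT-11 replicate 2 (0.0240).

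Of 18 transcription factors and other regulators linked to sugar genes, Myc rose and none fell by edgeR, 6 had an unadjusted p below 0.05, DESeq2 called 4 and limma-voom 2 (median log2 fold change -0.16). Myc went from 35.8 ± 4.01 to 54.4 ± 8.0 CPM (log2 change 0.60, adjusted p = 0.0411 by edgeR), higher in 4 of 4 CPT-11 libraries than in any vehicle library. Of the 8 fits that leave out a library, the fit without CPT-11 replicate 2 kept the call of Myc, and in the others the adjusted p was 0.0511 to 0.121. Hnf4a, a master factor of enterocyte genes, stood at 764 ± 52.2 and 559 ± 90.9 CPM (log2 change -0.45, adjusted p = 0.124). Gata4 stood at 72.2 ± 15.1 and 42.2 ± 10.0 CPM (adjusted p = 0.0549) and passed without vehicle replicate 4 (0.0460) or CPT-11 replicate 3 (0.0198). Ppara, the fatty acid sensor, stood at 57.7 ± 4.65 and 31.4 ± 12.4 CPM (adjusted p = 0.0646) and passed without CPT-11 replicate 3 (0.00727).

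**Figure D4:**
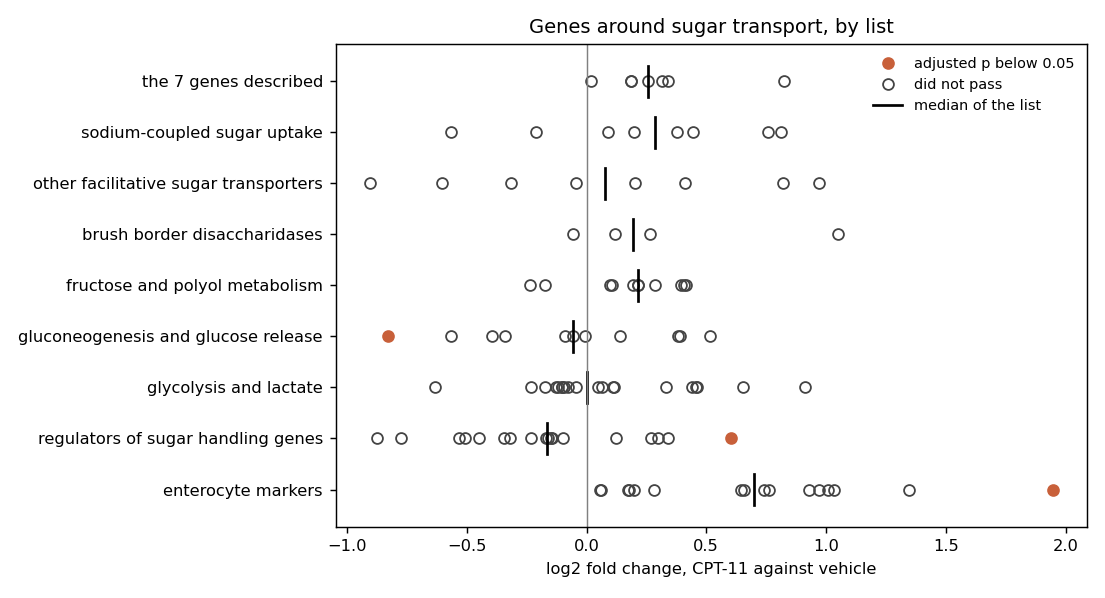
Log2 fold change, CPT-11 against vehicle, of the 7 genes and of each tested gene of 8 lists (circles, filled where the adjusted p is below 0.05), with each list's median (black bar). Pck2, Myc and Fabp2 are the only filled circles, and the median of the enterocyte markers (0.70) lies to the right of that of the 7 genes (0.26).

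The median of the listed enterocyte markers lay further to the right than that of the sugar genes, though few passed. Of 16 tested, all had a fold change above 0, 1 rose and none fell (median log2 fold change 0.70). They spread widely, from 0.06 for Enpep and Mttp to 1.35 for Apoa1 and 1.95 for Fabp2. The median depends on which markers were listed, and the brush border disaccharidases, listed apart, had a median of 0.19. The markers also differ in gene length, and Fabp2 and Apoa1 are shorter genes than Enpep and Mttp. The marker sums, the median of the markers and the ratios to them were not corrected for the length trends of the libraries. The part of gene length in these values was not tested. The gene that rose was Fabp2, the intestinal fatty acid binding protein (log2 change 1.95 ± 0.44, adjusted p = 0.0337), and leaving out CPT-11 replicate 1 or any vehicle library ended this call (0.0574 to 0.12). Vil1, the microvillus protein villin, stood at 1426 ± 155 and 1609 ± 235 CPM and Apoa4, an apolipoprotein of chylomicrons, at 1298 ± 634 and 2203 ± 889 CPM (adjusted p = 0.549 and 0.245). Of 9 genes of dissociation stress 4 rose and none fell (median 0.71), namely Junb, Egr1, Hspa1a and Hspa1b, with adjusted p of 0.0229, 0.0493, 0.0183 and 0.0116. Junb lost its call when CPT-11 replicate 1 or vehicle replicate 1, 3 or 4 was left out (adjusted p up to 0.0928), Hspa1a without vehicle replicate 1, 3 or 4 (up to 0.0749), and Egr1 without any 1 library other than CPT-11 replicate 2 (up to 0.153). The part of handling stress in the spread of the sugar genes was not tested.

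Other cell types were read from their own markers, since Pck1 is also a gene of fat cells and Khk, Pck1, G6pc and Slc2a2 are also genes of hepatocytes. Adiponectin, Adipoq, had at most 5 counts and albumin, Alb, at most 35 counts in any library, and 1 of 6 adipocyte and 4 of 6 hepatocyte markers passed the filter, with 0 called by edgeR (1 of each list had an unadjusted p below 0.05). These were Cidec, a lipid droplet gene, at 14.5 ± 4.27 CPM under vehicle and 27.0 ± 10.9 CPM under CPT-11, and Cps1, a urea cycle enzyme that intestinal epithelium also makes, at 1181 ± 164 and 699.9 ± 209 CPM with no overlap between groups. Dividing cell markers fell for 4 of 8 and rose for 0 (median log2 fold change -0.71), with sums of 551 to 766 CPM under vehicle and 308 to 400 CPM under CPT-11. Stem cell markers fell for 3 of 6 and rose for 0 (1509 to 1802 CPM against 461 to 698 CPM). Of the 6 Paneth, 6 goblet and 8 enteroendocrine markers 0 were called by edgeR, with 2, 1 and 2 at an unadjusted p below 0.05. Of 6 immune markers 4 were tested, 2 had an unadjusted p below 0.05 and 1 rose, the B cell gene Cd79a (adjusted p = 0.0406), while the myeloid gene Itgam stood at 2.30 ± 0.563 and 0.446 ± 0.366 CPM (adjusted p = 0.0579) with no overlap between groups. Of 6 fibroblast and muscle markers 3 were tested and 0 called, with 1 at an unadjusted p below 0.05. Of the red cell markers 3 were tested and of the endothelial markers 2, with 0 called by edgeR and 1 of each list at an unadjusted p below 0.05. The part of this shift in cell markers in the levels of the sugar genes was not tested.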

How the data were processed

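RNA-seq of 8 ileal crypt libraries was read from a deposited table of estimated counts per gene, which the authors made from their reads. Per the submitters' processing notes, Bowtie2 2.4.1 and the mouse build GRCm38.p6 were used, and neither the estimating tool nor the strand setting was given in the sources used here. Between 10.3 and 11.1% of the values of a library were not whole, and all were rounded to whole numbers. The 543 rows without a gene name, 0.325 to 0.662% of a library's counts, were left out.

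Genes were kept by edgeR's filterByExpr (minimum count 10, minimum total 15), scaled by TMM and tested with edgeR's quasi-likelihood test (edgeR 4.0.16, limma 3.58.1, R 4.3.3), CPT-11 against vehicle, 4 libraries each, with Benjamini-Hochberg adjustment over all 14011 genes at 0.05. CPM used TMM-scaled totals, and ratios used a pseudocount of 0.5 CPM. Groups came from the treatment label. The test was checked on simulated counts, where 1 of 13616 unchanged genes was called. These counts were drawn gene by gene from the kind of model that was then fitted. Apart from depth and scaling they hold no effect shared across a library, so false calls from such effects could not appear. Alternatives were other scalings and filters, DESeq2 1.42.0, limma-voom, a replicate block, a correction of every library for its trend on gene length, and leaving out libraries. Leaving out libraries for the ratios was chosen after seeing the data. Replicate pairs differed far beyond sampling noise (chi-square per degree of freedom 22.1 to 310.5), so no library was counted as a copy of another. Counting error is small at these depths beside the spread between libraries.

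The members, the pathway lists and the marker lists were chosen with earlier results of these data known. The named genes are the 7 members in every library, the genes of each pathway list that passed (at most 4), Vil1 and Apoa4, and per member the 2 genes with the highest Pearson r of log2 CPM over the 8 libraries. Other genes given with values were chosen after their values were seen. Gene positions are from GENCODE M21, and promoters from RefSeq.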

Additional observations from a re-analysis of the deposited data

Results flagged for a closer look

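In 36 groups of 4 values, 2 held a library far from the other 3, where chance gives about 1 in 20. Khk in CPT-11 replicate 2 stood at 374 CPM, against 141 to 158 CPM in the other CPT-11 libraries. Pck1 in vehicle replicate 2 stood at 170.4 CPM, against 55.6 to 72.8 CPM in the other vehicle libraries.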

How the results depend on the processing

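None of the 7 genes passed under any alternative run apart from Slc2a2 under the replicate block. With replicate numbers as a block, Slc2a2 stood at a log2 fold change of 0.91 (adjusted p = 0.0473 by edgeR; 0.0473 to 0.431 over its alternatives) and 686 genes were called over all, against 770 without the block. The numbers share only a label: the deviations of same-numbered libraries correlated at 0.31, 0.17, -0.16 and 0.12, and of the vehicle libraries replicates 1, 2 and 4, but not 3, correlated best with their own number. The block changed no other member's call. The sign of the log2 fold change turned for Pck1 without a filter on low counts (-0.0015), and without CPT-11 replicates 2 and 4 for Slc2a1 (-0.0011) and Khk (-0.11). With 1 library left out in turn, the log2 fold change ran from -0.28 to 0.50 for Pck1, from -0.11 to 0.48 for Khk and from -0.043 to 0.63 for G6pc. The causes were not tested. Over all genes, DESeq2 called 1884 (1045 higher, 839 lower), removal of the length trend gave 1299 (684 higher, 615 lower), the fit without CPT-11 replicates 2 and 4 gave 1212 (637 higher, 575 lower), and leaving out 1 library gave 236 to 1522 (132 to 769 higher, 104 to 753 lower). The log2 difference of Khk to the enterocyte markers moved from -0.41 to -0.79 without CPT-11 replicates 2 and 4. Among the other named genes the sign turned with the length trend removed for 2810025M15Rik (-0.11), Fth1 (-0.13) and Mnt (0.11). Without CPT-11 replicates 2 and 4 it turned for 2810025M15Rik (-0.19), Fth1 (-0.24), Mnt (0.15), Tmem120a (-0.031) and Tymp (0.24). With 1 library left out, the range of the log2 fold change crossed 0 for Mgam (-0.092 to 0.26), 2810025M15Rik (-0.00692 to 0.32), Fth1 (-0.18 to 0.35), Tymp (-0.19 to 0.14) and Mnt (-0.13 to 0.040).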
